A study of Mus musculus with 6 samples.

Results

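The 43 genes described here encode the liver's machinery for burning fatty acids: their uptake and activation, the carnitine shuttle, mitochondrial and peroxisomal beta-oxidation, acyl-CoA thioesterases and ketone body enzymes. They are listed by name as a pathway, and the list was drawn up with earlier results of these data known. All 43 were found among the 14669 rows of the deposited expression table, and 40 had a mean of at least 1 FPKM (fragments scaled to gene length and to library depth) and entered the test. Acot1, Acot3 and Hacl1 were below that level. No gene of the pathway passed an adjusted p of 0.05 in limma between shBicd2 and scramble livers, and 0 of all 10152 genes tested did. Of the 40 tested, 36 (90%) had log2 fold changes smaller than 0.5 in size, against 84.5% of all genes.

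The livers came from male wild-type C57BL/6J mice, 8 weeks old. Hydrodynamic injection, a rapid push of fluid into a vein that drives DNA into the liver, gave each mouse 25 µg of pLKO plasmid in 2.5 ml saline. It carried a scrambled hairpin (libraries Sc3, Sc4 and Sc5) or a hairpin against Bicd2, an adaptor of the dynein motor (libraries sh1, sh3 and sh6). Both groups received concanavalin A (ConA), a T cell activating lectin that causes acute hepatitis, at 15 mg/kg on day 3, and livers were collected 6 h later. The comparison is therefore between plasmids during hepatitis, with no liver free of ConA. Such an injection reaches only some of the hepatocytes, and RNA was taken from liver tissue, so fewer cells of a type and less RNA per cell cannot be told apart. Whether every library is from its own mouse is not stated, so the p-values reflect the scatter among these samples alone, and part of it may be technical.

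Long-chain fatty acids enter hepatocytes, are joined to coenzyme A, and cross the mitochondrial membranes as carnitine esters. Inside, repeated rounds of dehydrogenation, hydration, a second oxidation and thiolysis release acetyl-CoA, which the liver turns into ketone bodies during fasting. Peroxisomes shorten very long and branched chains before mitochondria take over. The nuclear receptor PPAR alpha, encoded by Ppara, drives many of these genes in the fasted liver.

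Reads recovered from the steps of the FPKM values gave depths of 16.0 to 18.9 M reads per library, and the groups' depths overlapped. The targeted transcript Bicd2 was at 3.13 to 4.14 FPKM in scramble and 2.57 to 3.61 FPKM in shBicd2, and the groups overlapped (p = 0.4, exact permutation test, two-sided; 3 against 3 cannot go below 0.1). The group name therefore stands for the plasmid given. Library sh1 departed from scramble in both directions: 29.4% of all genes tested were below 0.75 times the scramble mean there and 26.2% above 1.33 times. The coefficient of variation within shBicd2 exceeded that within scramble for 82.0% of all genes tested. Hepatocyte markers, all 10 of which were detected, summed to 27220 to 33217 FPKM in scramble and 32177 to 41696 FPKM in shBicd2. Endothelial markers summed to 23.9 to 31.1 FPKM in scramble and 15.3 to 18.9 FPKM in shBicd2, with all 6 in the table. The 7 Kupffer cell markers summed to 61.8 to 90.8 and 35.5 to 64.5 FPKM, and the 6 stellate cell markers to 31.0 to 39.6 and 16.9 to 27.7 FPKM. Neutrophil markers summed to 353 to 482 and 144 to 411 FPKM, T and NK cell markers to 3.83 to 5.01 and 3.51 to 5.59 FPKM, and erythroid markers to 63.5 to 80.6 and 31.7 to 76.8 FPKM. Cholangiocyte markers summed to 41.5 to 67.2 and 29.985 to 135 FPKM, with sh1 the highest. The 2 of 5 adipocyte markers in the table summed to 15.6 to 26.0 and 4.73 to 13.7 FPKM, and Adipoq, Plin1, Lep and all 3 muscle markers were not in it. Krt19 and Hbb-bs were absent too, so the cholangiocyte and erythroid sums rest on 4 of 5 markers each. Only 2 of the 7 T and NK cell markers reached the level for testing. All shBicd2 values lay above scramble for 3 of 10 tested hepatocyte markers (5.7% of all genes). All lay below for 3 of 5 endothelial, 2 of 7 Kupffer, 2 of 5 neutrophil and 1 of 4 stellate markers (18.7% of all genes). The same held for 1 of 2 tested cholangiocyte and 1 of 2 adipocyte markers. Those 2 adipocyte markers, Cidec and Fabp4, are also among the other pathway genes counted below. No marker passed an adjusted p of 0.05 in limma. The part of these cell type markers in the results below was not tested.

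Across the 40 tested genes the median log2 fold change, shBicd2 minus scramble on the log2(FPKM + 1) scale, was 0.01, against -0.06 over all 10152 genes tested, and 21 of the 40 were positive. On a TPM scale the 2 medians were -0.08 and -0.16 with 14 positive, and after median-of-ratios scaling 0.10 and 0.01, when 26 were positive. Fold changes ran from -0.57 (Crat) to 0.61 (Etfb). None passed the adjusted threshold in limma, where 0% of all genes did (0 of 10152). Slc27a2, Hadh and Decr2, 3 genes, had unadjusted p-values below 0.05. That is 7.5% of those tested, against 15.7% of all genes. All 3 lay higher in shBicd2, where 2.97% of all genes did so, and none lay lower, where 12.7% of all genes did. The groups did not overlap for 5 genes (12.5%), against 24.4% of all genes. Slc27a2, Hadh, Decr2 and Echs1 had all shBicd2 values above scramble (5.7% of all genes did), and Acadvl had all below (18.7% of all genes did). These counts rest on few libraries: the 3 became 7 without sh1 and 7 without sh6 (17.5% and 14.9% of all genes), 2 without Sc3 and 2 without Sc4 (8.25% and 11.4%), and 1 without Sc5 (8.2%). The 5 became 11 without Sc4, 12 without sh1 and 15 without sh6, where 33.6%, 35.8% and 35% of all genes did not overlap. Array weights, estimated from these same libraries, were 0.18 for sh1, 0.28 for sh3 and 4.67 for sh6. The shBicd2 side of that limma fit therefore rested mostly on sh6. In it 5 of the 40 passed the adjusted threshold (26.7% of all genes did), Slc27a2, Etfb, Fabp1 and Acat1 higher and Crot lower. An unadjusted p below 0.05 was found for 12 (41.2% of all genes). These counts are not support from 3 libraries against 3.

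**Figure D1:**
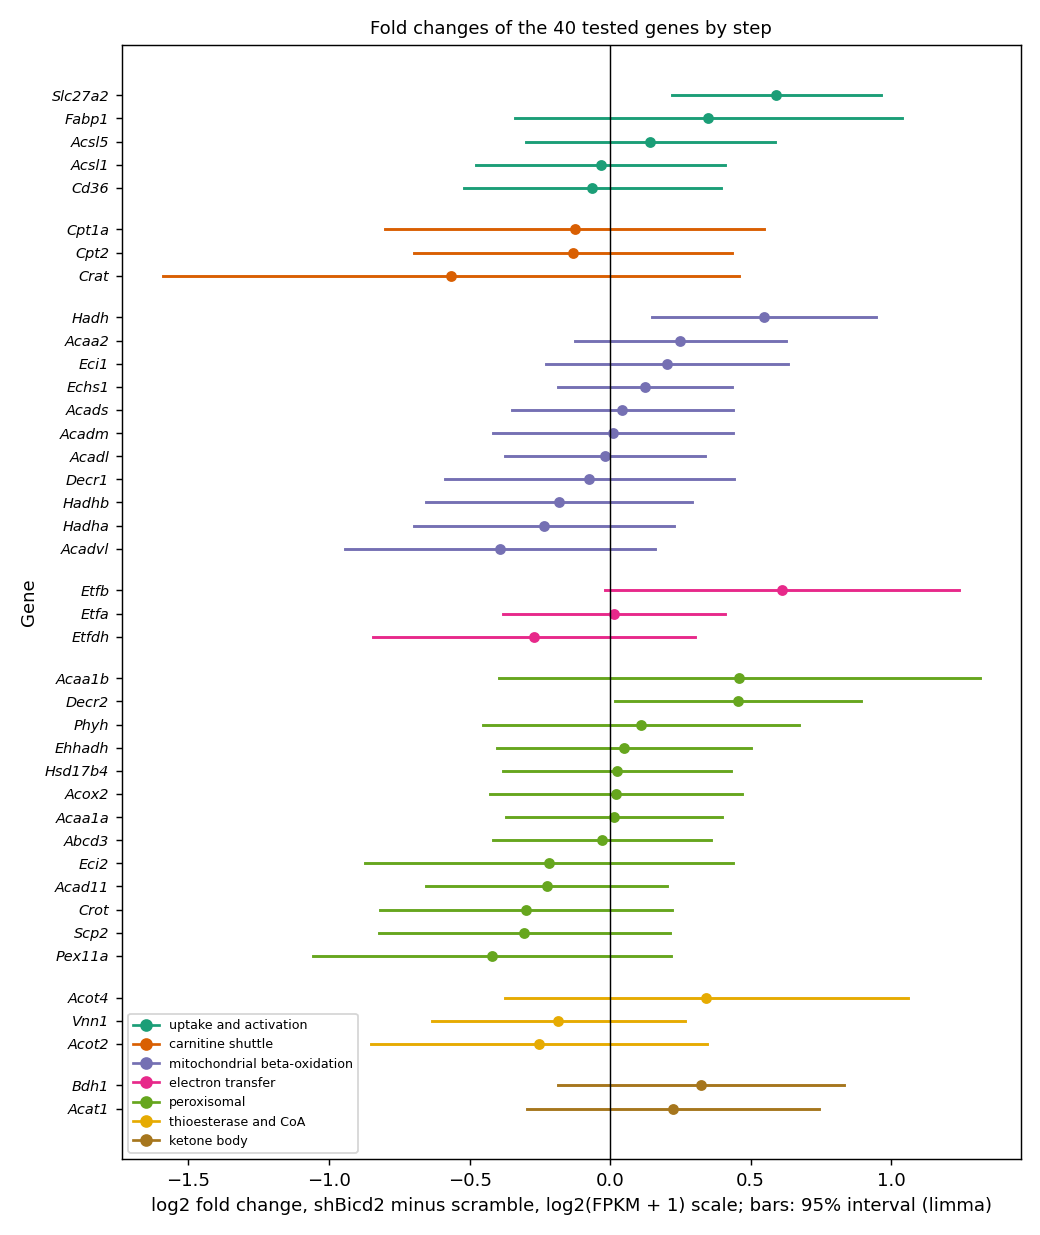
log2 fold change of each of the 40 tested genes (x axis, shBicd2 minus scramble on the log2(FPKM + 1) scale, with its 95% interval from limma; genes on the y axis), coloured by step. The intervals of Slc27a2, Hadh and Decr2 lie above 0, and those of the other 37 genes span 0.

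The libraries did not move together. Library sh1 held the lowest value of the 6 for 18 of the 40 genes, and 28.8% of all genes tested were lowest there. Relative to the scramble mean, 11 of the 40 genes were below 0.75 times in sh1, 4 in sh3 and 2 in sh6. Over all genes tested these shares were 29.4%, 31.9% and 20.5%. The median departure from the scramble mean was -0.17 in sh1, 0.06 in sh3 and 0.13 in sh6 for the pathway genes, and -0.02, -0.18 and -0.01 for all genes. By this median the pathway genes were lower in sh1 and slightly higher in sh3 and sh6. The coefficient of variation was larger in shBicd2 than in scramble for 30 of the 40 genes, with medians of 23.0% and 11.2%. Summed over the 43 genes, the level was 3764, 3733 and 3790 FPKM in scramble against 3067, 4779 and 4540 in sh1, sh3 and sh6, so that the shBicd2 libraries lay on both sides of a narrow scramble range. Fabp1, Scp2 and Phyh, with means of 1057, 817 and 545 FPKM, weigh most in these sums.

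**Figure D2:**
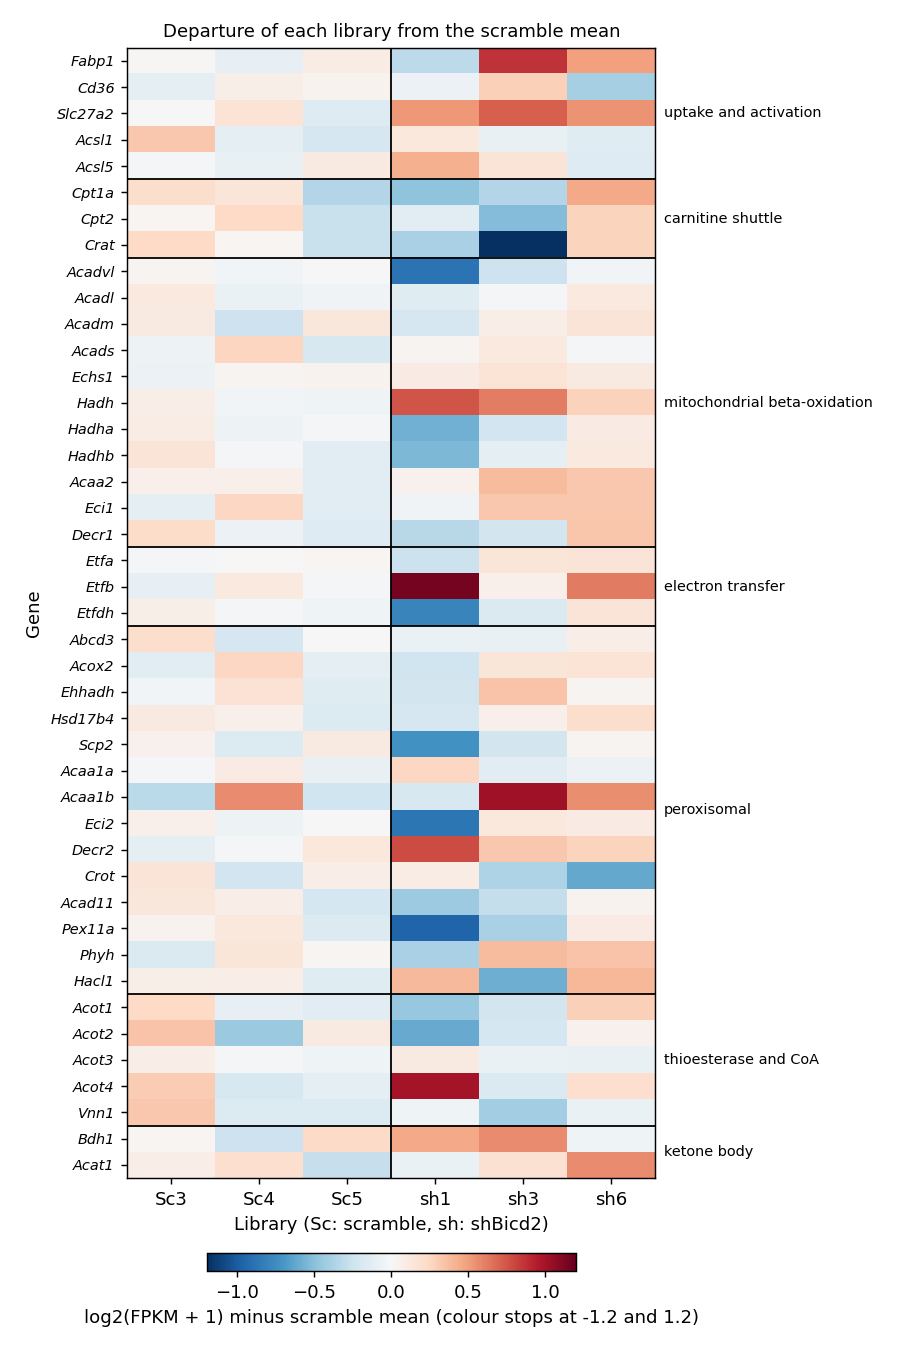
Heat map of the 43 genes (rows, grouped by step) in the 6 libraries (columns); colour is log2(FPKM + 1) minus the scramble mean, blue below and red above, with colours stopping at -1.2 and 1.2. Library sh1 shows deep blue cells for Acadvl, Eci2, Scp2, Etfdh and Pex11a and red cells for Etfb and Acot4. The deepest blue cell is that of Crat in sh3, and Slc27a2 is red in all 3 shBicd2 libraries.

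Promoter sequence was examined because nuclear receptors such as PPAR alpha bind DNA at repeats of the hexamer AGGTCA. RefSeq windows of 300 bases (GRCm38.p6, 250 before to 50 after a start) were found for 37 of the 43 genes. The hexamer repeated head to tail with 1 base between, searched on both strands as an exact match, was in 0 of their 42 windows and in 0.0396% of all 32851 windows. At so low a share almost any 42 windows would hold none, so the 0 says nothing about these genes. Repeats with a mismatch were not searched. The hexamer AGGTCA alone, on either strand, was in 12 of the 42 windows (28.6%), from 11 genes, against 16.3% of all windows. Of the 5 genes whose groups did not overlap, Slc27a2, Echs1 and Acadvl held it, beside 11 of all 37 genes with a window. The rest of the 11 were Phyh, Acadm, Scp2, Cd36, Fabp1, Acot4, Acot3 and Cpt1a, whose groups overlapped. A link between the hexamer and the group values was not tested. Their stretches of 30 bases follow, with that of Fabp1, the most abundant gene, for comparison (its window holds the hexamer at 2 places, and the one farther upstream is shown). Each reads 5′ to 3′ on the gene's strand, with the hexamer or its reverse complement TGACCT in capitals.
Slc27a2: gcaccacgccttTGACCTtttcaacgtggg
Echs1: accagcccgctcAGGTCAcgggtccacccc
Acadvl: atggatcaccctAGGTCAggtagaatacag
Fabp1: atcgacaatcacTGACCTatggcctatatc
They lie at chr2:126552792-126552821 (plus strand), chr7:140116487-140116516 (minus), chr11:70015498-70015527 (minus) and chr6:71199800-71199829 (plus), where the hexamer begins 220, 83, 87 and 67 bases before the RefSeq start. The Slc27a2 stretch lies inside a longer exon (126552407 to 126553632) of a GENCODE M21 transcript that starts farther upstream. That of Fabp1 overlaps the start of an exon (71199827 to 71199993), and those of Echs1 and Acadvl lie outside exons. A match of letters is a description and not a binding site. The windows of Hadh and Decr2 held no match.

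In uptake and activation the smallest p belonged to Slc27a2 (chromosome 2, 126552407 to 126588243, plus strand; GRCm38), which encodes the very long-chain acyl-CoA synthetase FATP2 and also serves fatty acid uptake. It read 135, 153 and 122 FPKM in the scramble libraries Sc3, Sc4 and Sc5 against 195, 224 and 198 in sh1, sh3 and sh6. Every shBicd2 library lay above every scramble library. The means were 136 ± 15.5 and 206 ± 16.1 FPKM (SD, n = 3), which gave a log2 fold change of 0.59 ± 0.16 (SE; 95% interval 0.22 to 0.96), with an adjusted p of 0.195 in limma and an unadjusted p of 0.00693. Each library held 7319 to 14080 reads of it. Leaving out any library in turn kept the fold change between 0.51 and 0.67.

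Fabp1, the liver fatty acid binding protein and the most abundant transcript of the pathway, read 909, 840.0 and 956 FPKM in scramble against 724, 1643 and 1269.7 in sh1, sh3 and sh6. Here sh1 was the lowest library and sh3 and sh6 the highest pair, so the groups overlapped. Its log2 fold change was 0.35 ± 0.29 (SE; limma adjusted p = 0.596), and it was 0.68 without sh1 and 0.09 without sh3. Cd36, a fatty acid translocase that is low in this tissue, read 4.46, 5.20 and 5.07 FPKM in scramble against 4.61, 6.20 and 3.47 in shBicd2 and overlapped. The long-chain acyl-CoA synthetases Acsl1 and Acsl5 stood at 15.8 to 23.2 and 27.8 to 42.3 FPKM over all 6 libraries. Their fold changes were -0.03 and 0.14, with 95% intervals from -0.48 to 0.41 and from -0.30 to 0.59. Of the 5 genes of this step, 0 passed the threshold and the median fold change was 0.14, which was 0.00028 without sh1 and 0.28 without sh6.

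In the carnitine shuttle all 3 fold changes were below 0, with a median of -0.13, and 0 passed. The median was -0.013 without sh3 and -0.42 without sh6, and 0.20 with array weights. Cpt1a, the outer-membrane carnitine palmitoyltransferase that sets the pace of mitochondrial entry, read 33.0, 31.6 and 22.1 FPKM in scramble against 20.1, 22.1 and 39.4 in sh1, sh3 and sh6. Cpt2, its inner-membrane partner, read 38.6, 45.04 and 31.4 FPKM in scramble against 34.4, 26.2 and 45.8 in shBicd2. In both genes sh6 was the highest of the 6 libraries and the groups overlapped, with adjusted p-values of 0.858 and 0.821 in limma. The log2 fold change of Cpt1a was -0.13 (95% interval -0.80 to 0.55), and it was 0.05 without sh1. That of Cpt2 was also -0.13 (-0.70 to 0.44), and it was 0.06 without sh3.

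Crat, carnitine acetyltransferase, which handles short acyl groups, varied most in this step. It read 6.33, 5.29 and 4.17 FPKM in scramble against 3.73, 1.07 and 6.48 in sh1, sh3 and sh6, where the coefficient of variation was 71.9%. The lowest and the highest of the 6 values were both shBicd2 libraries, sh3 and sh6. Its fold change was -0.57 ± 0.44 (SE; limma adjusted p = 0.564), and it was -0.06 without sh3 and -0.99 without sh6.

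Of the 11 tested genes of mitochondrial beta-oxidation 6 had positive and 5 negative fold changes, with a median of 0.01 (-0.08 on a TPM scale), and 0 passed. Hadh (chromosome 3, 131233419 to 131272101, minus strand) encodes the dehydrogenase for medium- and short-chain 3-hydroxyacyl-CoA. It read 15.3, 14.1 and 13.8 FPKM in scramble against 24.9, 22.5 and 17.6 in sh1, sh3 and sh6. The groups did not overlap, and sh6 lay closest to scramble. The means were 14.4 ± 0.777 and 21.7 ± 3.72 FPKM (SD, n = 3), which gave a log2 fold change of 0.55 ± 0.17 (SE; 95% interval 0.15 to 0.94), with an adjusted p of 0.212 in limma and an unadjusted p of 0.0139. Leaving out 1 library gave 0.44 (without sh1) to 0.68 (without sh6), and array weights gave 0.28.

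Acadvl (chromosome 11, 70010183 to 70015411, minus strand), very long-chain acyl-CoA dehydrogenase, performs the opening step on long chains. It was at 64.4, 61.5 and 62.7 FPKM in scramble, a narrow range, and at 33.5, 52.6 and 61.4 in sh1, sh3 and sh6. All shBicd2 values lay below scramble, but sh6 missed the scramble range only narrowly. The log2 fold change was -0.39 ± 0.23 (SE; limma adjusted p = 0.451), and it was -0.14 without sh1. The dehydrogenases of long, medium and short chains, Acadl, Acadm and Acads, had fold changes of -0.02, 0.01 and 0.04, with 95% intervals no wider than -0.41 to 0.44. For Acadm the values were 49.1, 38.2 and 50.02 FPKM in scramble and 39.3, 48.2 and 50.8 FPKM in shBicd2, and the groups overlapped.

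Hadha and Hadhb encode both subunits of the trifunctional protein, which carries out the later steps on long chains; the genes lie side by side on chromosome 5 (30118304 to 30155162 and 30155248 to 30184593). Hadha read 27.4, 24.7 and 25.2 FPKM in scramble against 17.0, 21.8 and 27.5 in sh1, sh3 and sh6. Hadhb read 18.3, 16.2 and 14.8 FPKM in scramble against 10.9, 15.0 and 17.8 in sh1, sh3 and sh6. Both were lowest in sh1, at 0.66 and 0.67 times the scramble mean, and sh6 lay inside the scramble range for Hadhb and just above it for Hadha. Their fold changes were -0.24 ± 0.20 and -0.18 ± 0.20 (SE; limma adjusted p of 0.595 and 0.697). Without sh1 they were -0.066 and -0.0025, and without sh6 -0.40 and -0.33.

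Echs1, the short-chain enoyl-CoA hydratase, had the smallest spread of the pathway in shBicd2, with a coefficient of variation of 2.72%. It read 14.7, 15.9 and 16.0 FPKM in scramble against 16.7, 17.6 and 16.9 in shBicd2. Although these values did not overlap, the log2 fold change was only 0.12 ± 0.13 (SE, limma adjusted p = 0.682). The thiolase Acaa2 was at 226 to 257 FPKM in scramble and 254 to 319.5 FPKM in shBicd2. The enzymes for unsaturated chains, Eci1 and Decr1, had fold changes of 0.20 and -0.07, and all 3 genes overlapped between groups.

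Electrons from the acyl-CoA dehydrogenases pass through the flavoprotein ETF, made of the products of Etfa and Etfb, to the oxidoreductase encoded by Etfdh. The 3 genes differed in pattern, and 0 passed. Etfb read 6.57, 7.76 and 6.97 FPKM in scramble against 16.9, 7.45 and 11.5 in sh1, sh3 and sh6, and sh3 fell among the scramble libraries. Etfdh read 18.6, 17.4 and 17.1 FPKM in scramble against 9.80, 15.5 and 19.8 in sh1, sh3 and sh6. In sh1 these were 2.38 and 0.555 times the scramble mean, in opposite directions. The log2 fold change of Etfb was 0.61 ± 0.27 (SE; limma adjusted p = 0.334), and it was 0.35 without sh1 and 0.89 without sh3. That of Etfdh was -0.27 ± 0.24 (adjusted p = 0.624), and it was -0.011 without sh1 and -0.48 without sh6. Etfa was at 99.5 to 102 FPKM in scramble, with a coefficient of variation of 1.54%, and at 84.1, 111 and 112 FPKM in shBicd2 (fold change 0.01).

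**Figure D3:**
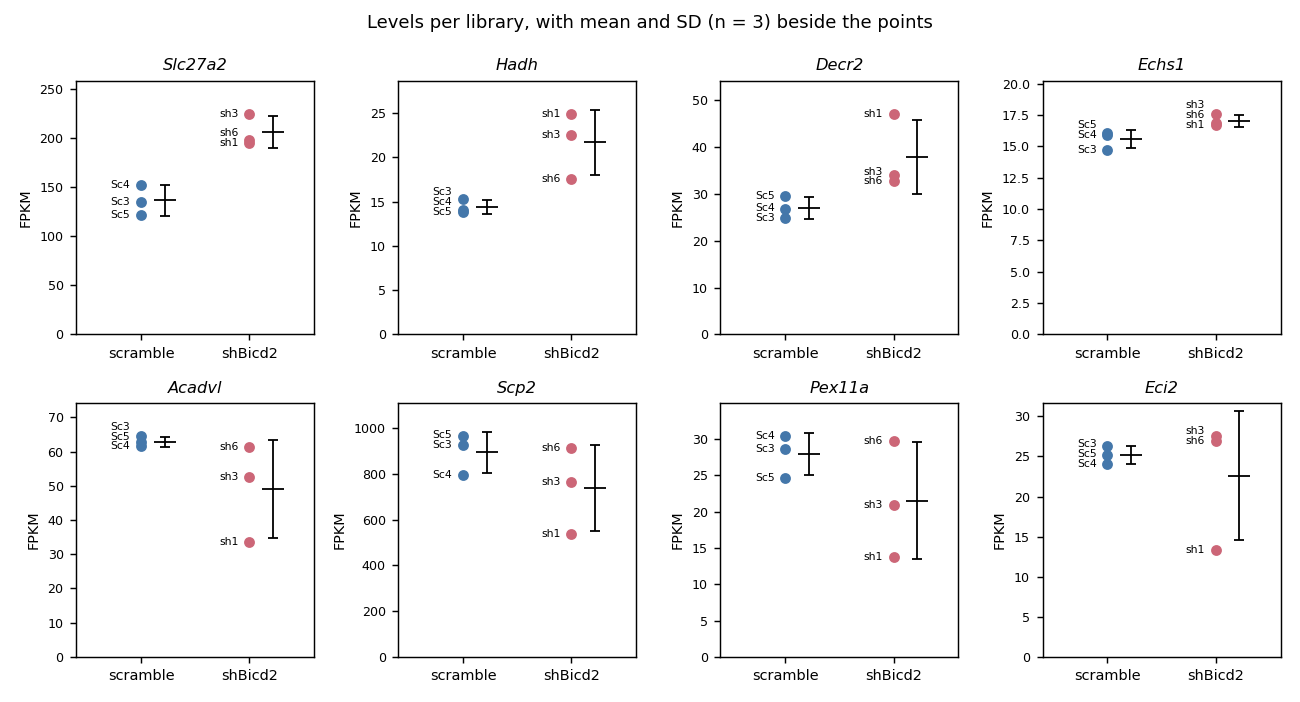
FPKM in each library (y axis, from 0; points, named) for 8 genes in scramble and shBicd2 livers (x axis), with the mean and SD of 3 libraries beside the points. Slc27a2, Hadh, Decr2 and Echs1 have all shBicd2 points above scramble, and in Acadvl, Scp2, Pex11a and Eci2 the point of sh1 is the lowest.

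Of the 14 peroxisomal genes 13 were tested, 7 with positive and 6 with negative fold changes, a median of 0.01 (-0.08 on a TPM scale) and 0 past the threshold. Decr2 (chromosome 17, 26081208 to 26090337, minus strand) is the peroxisomal 2,4-dienoyl-CoA reductase needed for polyunsaturated chains. It read 24.8, 26.8 and 29.5 FPKM in scramble against 46.9, 33.9 and 32.6 in sh1, sh3 and sh6. The groups did not overlap, with sh1 well above the others. The means were 27.0 ± 2.33 and 37.8 ± 7.93 FPKM (SD, n = 3), which gave a log2 fold change of 0.45 ± 0.19 (SE; 95% interval 0.02 to 0.89), with an adjusted p of 0.304 in limma and an unadjusted p of 0.0438. The fold change was 0.29 without sh1.

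Among the other peroxisomal genes, Abcd3, Ehhadh, Hsd17b4 and Acox2 had fold changes near 0, while the median size over the 13 was 0.22, against 0.21 over all genes. Abcd3, the transporter PMP70 that brings acyl-CoA into peroxisomes, read 38.7, 28.8 and 33.2 FPKM in scramble against 31.5, 31.3 and 35.4 in shBicd2. Ehhadh and Hsd17b4 encode the L- and D-bifunctional proteins. Ehhadh read 34.3, 39.7 and 31.7 FPKM in scramble against 29.9, 44.8 and 35.8 in shBicd2. The log2 fold changes of Abcd3, Ehhadh, Hsd17b4 and Acox2, an oxidase for branched chains and bile acid intermediates, ran from -0.03 to 0.05. Their 95% intervals reached at most 0.50 above and 0.43 below 0.

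The thiolase genes Acaa1a and Acaa1b lie near each other on chromosome 9 and are close copies, so the split of reads between them is uncertain. Acaa1a read 34.2, 36.9 and 32.4 FPKM in scramble against 41.1, 31.2 and 32.9 in shBicd2, with a fold change of 0.01. Acaa1b read 71.6, 133 and 76.0 FPKM in scramble against 78.4, 183 and 133 in shBicd2. It varied in both groups, with coefficients of variation of 36.7% and 39.7%, and its fold change of 0.46 ± 0.36 (SE; limma adjusted p = 0.574) was within that spread. It was 0.18 without sh3 and 0.79 without sh1.

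Of the 13 tested peroxisomal genes 4 were below 0.75 times the scramble mean in sh1 (30.8%, against 29.4% of all genes), Pex11a, Eci2, Scp2 and Acad11. The other genes listed as peroxisomal include the thioesterase genes Acot12 and Acot13. Of the 35 of them tested, 17 were highest in sh1 (48.6%, against 34.1% of all genes), with a median departure of 0.18 there. In sh3, 18 of them were lowest (51.4%, against 33.9% of all genes), with a median departure of -0.15. Pex11a, which promotes division of peroxisomes, read 28.7, 30.3 and 24.7 FPKM in scramble against 13.8, 20.9 and 29.8 in sh1, sh3 and sh6 (log2 fold change -0.42 ± 0.27 SE; limma adjusted p = 0.488). Its fold change was -0.15 without sh1 and -0.68 without sh6. Scp2, whose products include a sterol carrier protein and a thiolase, read 927, 793 and 964 FPKM in scramble against 539, 763 and 915 in sh1, sh3 and sh6. Eci2, an enoyl-CoA isomerase, read 26.3, 24.0 and 25.2 FPKM in scramble against 13.3, 27.5 and 27.0 in sh1, sh3 and sh6. In sh1 these genes stood at 0.494, 0.602 and 0.529 times the scramble mean, and all 3 overlapped between groups. Acad11, an acyl-CoA dehydrogenase family member, was also lowest in sh1, at 0.712 times the mean. Crot, carnitine octanoyltransferase, read 34.7, 26.3 and 32.9 FPKM in scramble against 33.1, 23.8 and 19.96 in sh1, sh3 and sh6. It was lowest in sh6, at 0.638 times the scramble mean, and its fold change was -0.30 ± 0.22 (SE; limma adjusted p = 0.545), -0.14 without sh6 and -0.63 with array weights. Phyh, phytanoyl-CoA hydroxylase for branched chains, was at 458 to 571 FPKM in scramble against 393, 673 and 654 in sh1, sh3 and sh6. Hacl1, which acts after Phyh, was at 0.631 to 0.913 FPKM in scramble and 1.36, 0.207 and 1.38 FPKM in shBicd2, from 17 to 129 reads, and was outside the fit (p = 0.6, exact permutation test).

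The acyl-CoA thioesterases, which release free fatty acids from coenzyme A, lie in a cluster on chromosome 12 (83987861 to 84060402 from Acot2 to Acot3) and were scarce in these livers. As close copies, they may share reads. Acot1, the cytosolic form, read 1.26, 0.797 and 0.748 FPKM in scramble against 0.405, 0.645 and 1.35 in shBicd2 (exact permutation p = 0.6). Acot2, the mitochondrial form, read 1.79, 0.609 and 1.36 FPKM in scramble against 0.449, 0.904 and 1.27 in shBicd2. Both were lowest in sh1, and the groups overlapped. Acot4, a peroxisomal form, went the other way in sh1: it read 1.68, 0.911 and 1.02 FPKM in scramble against 3.36, 0.938 and 1.504 in sh1, sh3 and sh6. Acot3 rested on 4 to 14 reads per library, too few to compare. Vnn1, a pantetheinase in coenzyme A turnover, read 5.12, 3.35 and 3.36 FPKM in scramble against 3.72, 2.64 and 3.61 in shBicd2 (log2 fold change -0.18 ± 0.19 SE, and -0.020 without Sc3; limma adjusted p = 0.676).

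The ketone body genes both had positive fold changes and neither passed. Bdh1, the mitochondrial 3-hydroxybutyrate dehydrogenase, read 12.3, 10.1 and 14.3 FPKM in scramble against 17.0, 18.5 and 11.6 in sh1, sh3 and sh6. Acat1, the mitochondrial acetoacetyl-CoA thiolase, read 42.6, 46.2 and 32.9 FPKM in scramble against 38.1, 45.7 and 60.0 in sh1, sh3 and sh6. Different libraries were high, sh1 and sh3 for Bdh1 and sh6 for Acat1, and both genes overlapped. The fold changes were 0.32 ± 0.22 and 0.22 ± 0.22 (SE; limma adjusted p of 0.503 and 0.654); that of Bdh1 was 0.20 without Sc4 or sh3 and 0.51 without sh6, and that of Acat1 was 0.08 without Sc5 and 0.05 without sh6.

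Other genes of the same pathways were taken from a list of 92, of which 89 were in the table and 83 were tested. None passed the adjusted threshold, 15 had an unadjusted p below 0.05 (18.1%, against 15.7% of all genes), and of these 6 lay higher and 9 lower in shBicd2. The groups did not overlap for 16 of the 83 (19.3%, against 24.4% of all genes). In 7 of these shBicd2 lay above (8.43%, against 5.7% of all genes) and in 9 below (10.8%, against 18.7%). Pecr, a peroxisomal enoyl-CoA reductase, had the smallest p of the other peroxisomal genes, at 30.6, 39.9 and 42.4 FPKM in scramble against 83.3, 63.6 and 52.7 in shBicd2. Every shBicd2 library lay above every scramble library, and the log2 fold change was 0.79 ± 0.22 (SE; limma adjusted p = 0.198).

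The 8 tested regulators had a median log2 fold change of -0.28, with 7 negative (5944 of all 10152 genes were), and 0 passed. Nr1h4 was the positive one (0.71 ± 0.26 SE, limma adjusted p = 0.265), and its groups overlapped. Ppara read 24.4, 17.4 and 16.0 FPKM in scramble against 8.43, 9.87 and 15.6 in sh1, sh3 and sh6. All shBicd2 values lay below scramble, sh6 by a small margin, and the log2 fold change was -0.74 ± 0.26 (SE; limma adjusted p = 0.240). The related receptor gene Pparg, low in liver, read 2.84, 2.10 and 2.98 FPKM in scramble against 1.24, 1.98 and 1.48 in shBicd2 (-0.50 ± 0.17; adjusted p = 0.229). The coactivator gene Ppargc1a, at 0.964 to 2.54 FPKM in scramble and 0.673 to 1.39 FPKM in shBicd2, overlapped. Acsl4, an activating enzyme for arachidonic acid, read 33.0, 17.0 and 27.3 FPKM in scramble against 10.5, 13.8 and 17.6 in shBicd2, with sh6 above Sc4 (-0.82 ± 0.28 SE; limma adjusted p = 0.241). Cyp4a31 was the omega-oxidation gene of smallest p, at 0.896 to 1.24 FPKM in scramble against 2.60, 1.08 and 2.44 in sh1, sh3 and sh6. Its fold change was 0.55 ± 0.23 (SE; limma adjusted p = 0.310), and without sh3 it passed (0.80, adjusted p = 0.0442). It has close copies, and its reads are uncertain.

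The 6 tested PPAR alpha target genes outside the oxidation pathway had a median log2 fold change of -1.28, with 5 negative, and 0 passed. Over all genes tested, 5944 of 10152 were negative. Mgll was positive (0.35), and Creb3l3 was at -0.54. The 10 omega-oxidation genes, counted apart, had a median of -0.14, with 4 positive and 6 negative. They ran from -0.65 (Cyp4a12b) to 0.72 (Cyp4a10). Whether any of these levels follow Ppara was not tested. For the 6, the median departure from the scramble mean was -2.29 in sh1, -1.16 in sh3 and -0.05 in sh6, so sh6 stood near scramble. Pdk4, the kinase that shuts pyruvate dehydrogenase during fasting, read 14.1, 8.43 and 17.1 FPKM in scramble against 0.686, 2.06 and 2.24 in sh1, sh3 and sh6. Its mean in shBicd2 was 0.126 times that in scramble, and the fitted difference was -2.42 ± 0.33 on the log2 scale (SE; limma adjusted p = 0.152). Without sh3 it passed, with a fold change of -2.55 and an adjusted p of 0.0355, where 2.85% of all genes passed. Plin2, which coats lipid droplets, read 267, 329 and 272 FPKM in scramble against 52.2, 73.8 and 184 in sh1, sh3 and sh6 (-1.68 ± 0.43 SE; adjusted p = 0.185), and with array weights its fold change was -0.74. For Pdk4 and Plin2 every shBicd2 library lay below every scramble library, as for 18.7% of all genes tested. Angptl4, a lipase inhibitor, was at 43.5 to 50.6 FPKM in scramble against 4.04, 25.1 and 56.0 in sh1, sh3 and sh6, and thus overlapped. With array weights, where shBicd2 rested mostly on sh6, 23 of the 83 passed in limma (26.7% of all genes did), 14 higher and 9 lower. Among them were Pdk4, Plin2, Pparg and Ppargc1a lower and Pecr, Cyp4a31 and Nr1h4 higher in shBicd2.

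**Figure D4:**
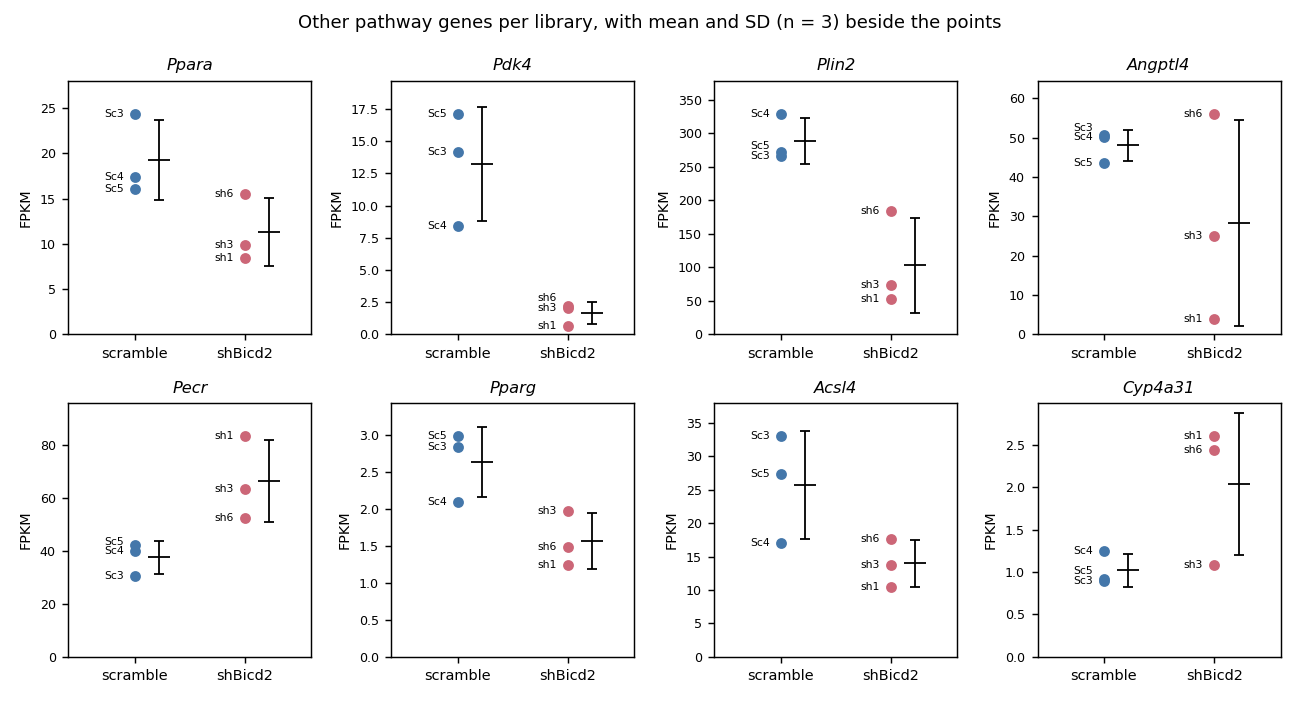
FPKM in each library (y axis, from 0; points, named) for 8 genes of the same pathways outside the 43 in scramble and shBicd2 livers (x axis), with the mean and SD of 3 libraries beside the points. Ppara, Pdk4, Plin2 and Pparg lie lower and Pecr higher in all shBicd2 libraries, while Angptl4, Acsl4 and Cyp4a31 overlap.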

How the data were processed

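Trizol-extracted liver RNA was sequenced from TruSeq libraries, per the labels' protocols. The submitters' processing notes list mm10, HISAT2 2.0.5 as aligner and featureCounts 1.5.0-p3 as counter; annotation and strand setting are unknown here. The authors deposited FPKM values, with no value at 0 in any of the 14669 rows. Column names give the group and no replicate number of the labels.

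Values were transformed to log2(FPKM + 1), which understates the change of low genes, and genes averaging 1 FPKM or more across all 6 libraries were tested. The group comparison used limma 3.58.1 (R 4.3.3) (eBayes with trend, two-sided) and Benjamini-Hochberg adjustment over all 10152 genes. Reads were recovered with exon lengths from GENCODE M21 (GRCm38); 98.2% of the 14339 matched rows were whole within 0.02 reads, or 0.0001 of the count where that is larger, in all libraries. The fit was tested on simulated data.

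The genes, lists and rules were chosen with earlier results of these data known. The rule named a panel (Cpt1a, Cpt2, Acadvl, Acadm, Hadha, Etfdh, Abcd3, Ehhadh, Acaa1a, Acaa1b, Acot1, Vnn1, Cd36, Fabp1, Slc27a2, Bdh1 and Acat1), the 2 genes of smallest p in each step, and from the other pathway genes Ppara, Ppargc1a and the smallest p of each subgroup, of which 1 is not reported here. Full values of Echs1, Scp2, Eci2, Hadhb, Etfa, Plin2 and Angptl4, and of Crot, were chosen after their values were seen. Alternatives are given at the end.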

Additional observations from a re-analysis of the deposited data

How the results depend on the processing

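Across 17 alternatives, 0 of the 40 tested genes passed an adjusted p of 0.05 in limma in every one except array weights, and a threshold of 0.1 called 0 in the reported fit. Array weights ranged from 0.18 (sh1) and 0.28 (sh3) to 4.67 (sh6), so shBicd2 rested mostly on sh6 there. With them 5 passed: Slc27a2 (0.55), Etfb (0.65), Fabp1 (0.48) and Acat1 (0.49) higher and Crot (-0.63) lower in shBicd2. That setting called 2709 of all genes (26.7%), 23 of the other pathway genes, and put 12 of the 40 at an unadjusted p below 0.05; there the median of uptake and activation was -0.11. Leaving out 1 library in turn gave 0 to 289 genes past the threshold among all genes and 0 to 2 among the other pathway genes (highest without sh3, Pdk4 and Cyp4a31). Of the 40, it gave 1 to 7 at an unadjusted p below 0.05 and 5 to 15 without overlap. The ketone body median was 0.19 on the TPM scale and 0.36 with size factors. Slc27a2, Hadh and Decr2 stayed above 0 in all 17, and so did Fabp1, Etfb, Echs1, Acaa2, Eci1, Acaa1b and Acat1. Acadvl, Scp2, Crot and Acad11 stayed below 0 in all 17. Of the genes with 16 alternatives, Acot4 stayed above 0 and Acot2 and Vnn1 below. All alternatives reuse the same 6 libraries, so a kept sign is no independent support.

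Some fold changes changed sign, and the cause was not tested. Most lay near 0, but with array weights the sign also turned for Crat, Pex11a, Bdh1, Etfdh and Angptl4, from -0.57, -0.42, 0.32, -0.27 and -1.32. With array weights the values of those that turned were Acsl5 -0.11, Cpt1a 0.30, Cpt2 0.20, Crat 0.062, Acadl 0.055, Hadha 0.024, Hadhb 0.025, Decr1 0.20, Etfdh 0.079, Acaa1a -0.058, Eci2 0.042, Pex11a 0.017, Bdh1 -0.0047 and Angptl4 0.0078. With size factors they were Cd36 0.013, Acsl1 0.051, Acadl 0.069, Decr1 0.010 and Abcd3 0.057. With quantile normalization they were Cd36 0.061, Acsl1 0.019, Acadm -0.0060 and Etfa -0.0080. On the TPM scale they were Acadm -0.082, Acads -0.049, Etfa -0.081, Acox2 -0.073, Ehhadh -0.044, Hsd17b4 -0.071 and Acaa1a -0.079. Leaving out 1 library, the ranges that crossed 0 were Cd36 -0.24 to 0.11, Acsl1 -0.14 to 0.13, Cpt1a -0.42 to 0.051, Cpt2 -0.33 to 0.063, Acadl -0.083 to 0.044, Acadm -0.11 to 0.12, Acads -0.053 to 0.17, Decr1 -0.28 to 0.057, Etfa -0.056 to 0.15. The others were Abcd3 -0.13 to 0.076, Acox2 -0.048 to 0.15, Ehhadh -0.097 to 0.19, Hsd17b4 -0.070 to 0.13, Acaa1a -0.10 to 0.091, Eci2 -0.39 to 0.11, Phyh -0.025 to 0.36. No paired analysis was possible because the columns carry no replicate number of the labels. Genes under about 100 reads, such as Acot1, Acot2 and Acot3, allow no fine comparison at this depth.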
